A study of Arabidopsis thaliana with 12 samples.

Results

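Sugar-starvation genes are genes whose transcripts are known to become more abundant when a plant runs short of sugar, in prolonged darkness for example. The genes described here are 7 of this kind in Arabidopsis thaliana, AKINBETA1, ATG8E, MCCB, AT3G15450, AT4G27450, AT3G15630 and AT5G21940. They were found by name among the probe sets paired with exactly 1 gene on an Affymetrix array, and all 7 were present, among 16550 genes measured in this way. Each of the 7 had 1 such probe set, a group of probes read out as 1 value, and none shared its values with another probe set.

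The arrays came from seedlings that carry CLE2, the gene of a small secreted signalling peptide, under an estradiol-inducible system, and the study asked which genes act downstream of CLE2. All seedlings carried this construct and were grown for 7 days at 22 °C in continuous white light of 25 to 30 µmol per square metre and second. Their roots were then given either β-estradiol, labelled as 5 mM, or the solvent DMSO for 24 h, after which shoots and roots were collected separately. The 4 groups are estradiol shoots, DMSO shoots, estradiol roots and DMSO roots, with 3 arrays in each and 12 in all. The treatment text describes estradiol for every sample, so the titles and the treatment label set the groups. There was no group that lacked the inducible gene and received estradiol, so effects of estradiol and of CLE2 cannot be told apart. CLE2 itself was not analysed here. The labels do not give the source of the replicates, so a p-value here reflects the spread among arrays within the groups, which may be technical.

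When sugar is scarce, the protein kinase SnRK1 becomes active in plant cells and shifts their gene expression from growth and storage towards the use of reserves. Cells then recycle their own contents by autophagy and burn amino acids, the branched-chain ones among them, in the mitochondria. Sugar supplied to the tissue or made in the light holds many of these genes at a low level. AKINBETA1 is a regulatory subunit of SnRK1, ATG8E belongs to the ubiquitin-like proteins that coat autophagosome membranes, and MCCB is a subunit of methylcrotonyl-CoA carboxylase in leucine breakdown. AT3G15450 and AT4G27450 encode proteins of a family named for its YGL and LRDR motifs. AT3G15630 and AT5G21940 are given by locus alone.

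All values below are log2 signals as deposited, so a difference of 1 is a doubling of signal, and they are listed for replicates 1, 2 and 3. Differences are estradiol minus DMSO with their standard error (SE) from limma, a linear model fitted to all 16550 genes. The main fit pools a gene's spread within groups over the 4 groups and draws it towards that of all genes. Each gene therefore has the same SE for its estradiol difference in shoots and in roots, whatever the spread in either organ. A gene was called when its p, adjusted over all these genes by Benjamini-Hochberg, was under 0.05. Levels of different genes come from different probes and are not set against each other.

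The organ labels held in marker genes. All 6 measured root marker genes had a higher level in DMSO roots than DMSO shoots and all 12 measured photosynthesis genes were lower, each with an adjusted p under 0.05. The summed linear signal of the root markers lay between 74.7 and 99.4 in estradiol shoots and between 75.5 and 88.7 in DMSO shoots, against 1485 to 1732 in estradiol roots and 1635 to 1725 in DMSO roots. That of the photosynthesis genes lay between 26450 and 27332 in estradiol shoots, 26026 and 27298 in DMSO shoots, 3246 and 4297 in estradiol roots, and 2942 and 4525 in DMSO roots. Both sums overlapped between estradiol and DMSO within each organ. Arrays of a group correlated at 0.986 to 0.994 over all genes, and root with shoot arrays at 0.862 to 0.870.

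In shoots, all 7 genes had a higher mean after estradiol was given to the roots, by 0.26 to 1.47 log2 units, where 49.2% of all genes had a difference above 0. Their median difference was 0.95, beside -0.004 over all genes, whose quartiles were -0.12 and 0.13. In limma 0 of the 7 were called, where 27 of all 16550 genes (0.163%) were. At an unadjusted p under 0.05 there were 6 of 7, against 9.95% of all genes. In 6 of the 7 every estradiol array was above every DMSO array, as in 6.85% of all genes, while groups apart in either direction made up 13.2%. The 7 genes were chosen with earlier results of these data known. Shares of all genes set beside them, here and below, are therefore a description and not a test. Because each array holds the RNA of a whole organ, a change in the number of cells of a type and a change in RNA per cell cannot be told apart.

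**Figure D1:**
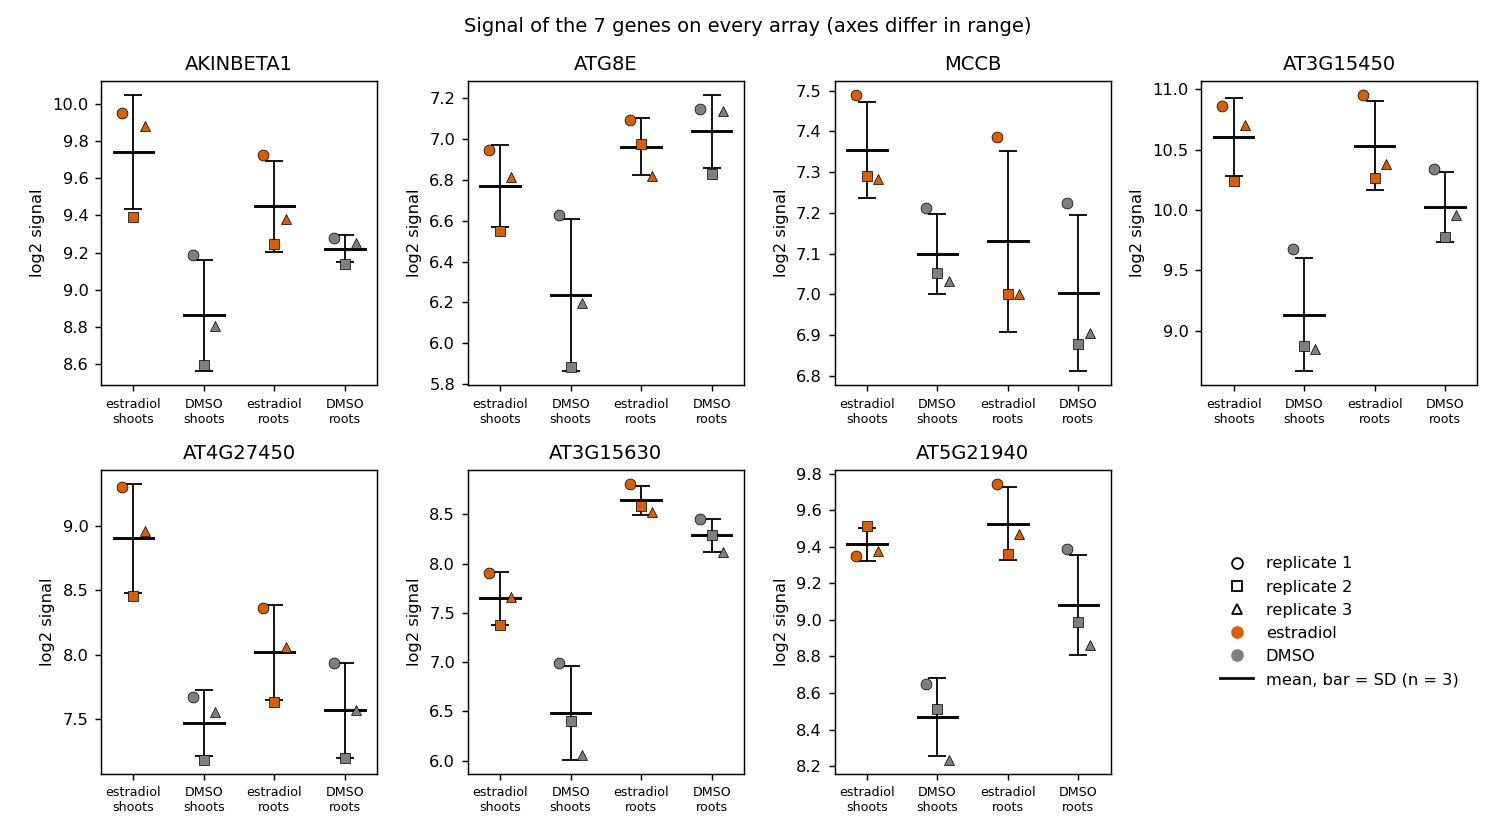
Log2 signal of the 7 genes on every array, with 1 panel per gene, 1 point per array, a line at each group mean and a bar for its SD (n = 3). In shoots the estradiol points lie above all DMSO points in 6 panels and overlap them in that of ATG8E, and in roots the treatments overlap in all panels but that of AT3G15630.

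The plot of signals by array holds the values given in turn below. AKINBETA1 encodes one of the β subunits, which hold the SnRK1 complex together and place it in the cell. It read 9.95, 9.39 and 9.88 in estradiol shoots, against 9.19, 8.60 and 8.80 in DMSO shoots. The lowest estradiol array was above the highest DMSO array, so the treatments did not overlap. The difference was 0.88 ± 0.19 (SE), or 1.84-fold, with a 95% interval, not adjusted for the number of genes, of 0.47 to 1.29 (limma adjusted p = 0.119). In roots, AKINBETA1 read 9.72, 9.24 and 9.38 with estradiol and 9.28, 9.14 and 9.25 with DMSO. These root values overlapped, and estradiol replicate 1 was the highest of the 6 arrays. Their difference was 0.23 ± 0.19 (SE), with an interval of -0.19 to 0.64 (limma adjusted p = 1.00).

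The 2 other measured members of the SnRK1 list were the remaining β subunit genes. AKINBETA2 differed by -0.13 ± 0.10 (SE) in shoots and AKINBETA3 by 0.05 ± 0.10, with limma adjusted p of 0.726 and 0.918. The list held 8 genes, of which 2 were measured and 0 were called in either organ.

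The YGL and LRDR motif genes had the largest differences among the 7. AT3G15450 read 10.86, 10.24 and 10.71 in estradiol shoots, against 9.68, 8.87 and 8.85 in DMSO shoots. The 3 estradiol arrays were all above the DMSO arrays, of which replicate 1 was the highest. The difference of 1.47 ± 0.27 (SE), or 2.77-fold, was the third highest of all 16550 genes, with an interval of 0.88 to 2.06 (limma adjusted p = 0.0717). Only AT3G58910 at 1.76 and AT4G15660 at 1.67 were higher, and they were not called either (limma adjusted p = 0.0630 and 0.0767); both are named after their values were seen. The standard error of AT3G15450 was larger than that of 91.0% of genes.

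AT4G27450 read 9.30, 8.46 and 8.96 in estradiol shoots, against 7.67, 7.18 and 7.56 in DMSO shoots. Its lowest estradiol array stood 0.79 above its highest DMSO array. The difference was 1.44 ± 0.26 (SE), or 2.71-fold, next in size after AT3G15450, with an interval of 0.86 to 2.01 (limma adjusted p = 0.0728). AT4G27450 had an SE above that of 90.1% of genes.

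In roots both genes had higher means with estradiol, and both overlapped. AT3G15450 read 10.96, 10.27 and 10.38 in estradiol roots, against 10.34, 9.78 and 9.96 in DMSO roots. Estradiol replicate 1 stood apart above the other 5 root arrays, and the difference was 0.51 ± 0.27 (SE, limma adjusted p = 1.00). AT4G27450 read 8.37, 7.63 and 8.06 in estradiol roots, against 7.94, 7.19 and 7.56 in DMSO roots. Replicate 1 was again the highest in each treatment, and the difference was 0.45 ± 0.26 (SE, limma adjusted p = 1.00).

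The other 3 genes of this family were all measured and differed less in shoots, by -0.02 to 0.25. AILP1 had a shoot difference of 0.25 ± 0.18 (SE) and AT5G43830 one of 0.16 ± 0.12, with limma adjusted p of 0.693 and 0.716. Their root differences ran between -0.31 and 0.11, and 0 of the 3 were called in either organ.

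ATG8E and MCCB, the genes of recycling and amino acid breakdown, had the smallest shoot differences of the 7. ATG8E read 6.95, 6.55 and 6.81 in estradiol shoots, against 6.63, 5.88 and 6.19 in DMSO shoots. DMSO replicate 1 was above estradiol replicate 2, so ATG8E was the member whose treatments overlapped in shoots. The difference was 0.53 ± 0.18 (SE), or 1.45-fold, with an interval of 0.13 to 0.93 (limma adjusted p = 0.353). In roots ATG8E read 7.10, 6.97 and 6.82 with estradiol and 7.15, 6.83 and 7.14 with DMSO. It was the only one of the 7 with a lower mean in estradiol roots, and the 2 sets of values overlapped. The root difference was -0.07 ± 0.18 (SE), with an interval of -0.47 to 0.32 (limma adjusted p = 1.00).

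All ATG8 genes in the list besides ATG8E were measured, 8 in number. Their shoot differences ran between -0.26 and 0.22 with a median of 0.09. ATG8F was the highest at 0.22 ± 0.08 (SE, limma adjusted p = 0.421) and ATG8H the lowest at -0.26 ± 0.13 (limma adjusted p = 0.536). Another 8 autophagy genes lay between -0.14 and 0.16. Of the 39 autophagy genes listed, 16 were measured, 0 were called in either organ, and 11 had a positive shoot difference.

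MCCB read 7.49, 7.29 and 7.28 in estradiol shoots, against 7.21, 7.05 and 7.03 in DMSO shoots. The treatments did not overlap, although the lowest estradiol array stood only 0.07 above the highest DMSO array. The difference was 0.26 ± 0.13 (SE), or 1.19-fold, and its interval of -0.04 to 0.55 included 0 (limma adjusted p = 0.570). In roots MCCB read 7.39, 7.00 and 7.00 with estradiol and 7.22, 6.88 and 6.91 with DMSO. Replicate 1 was the highest in both treatments, the treatments overlapped, and the difference was 0.13 ± 0.13 (SE, limma adjusted p = 1.00). Without estradiol root replicate 1 the root difference of MCCB was -0.002.

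Among the other branched-chain amino acid breakdown genes, 8 of 17 were measured and 0 were called. Their median difference was 0.12 in shoots and 0.01 in roots. AT1G21400 differed most, by 0.51 ± 0.17 (SE) in shoots and 0.41 ± 0.17 in roots, with limma adjusted p of 0.333 and 0.941. ALDH6B2, a dehydrogenase of valine breakdown, differed by 0.25 ± 0.11 in shoots (limma adjusted p = 0.500).

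AT3G15630 and AT5G21940 completed the set. AT3G15630 read 7.91, 7.37 and 7.67 in estradiol shoots, against 7.00, 6.41 and 6.05 in DMSO shoots. All estradiol arrays were above all DMSO arrays. The difference was 1.16 ± 0.22 (SE), or 2.24-fold, with an interval of 0.69 to 1.64 (limma adjusted p = 0.0767). In roots AT3G15630 read 8.81, 8.58 and 8.53 with estradiol and 8.45, 8.30 and 8.11 with DMSO. It was the only one of the 7 whose root treatments did not overlap, as 12.3% of all genes did not, and the difference was 0.35 ± 0.22 (SE, limma adjusted p = 1.00).

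AT5G21940 read 9.35, 9.51 and 9.38 in estradiol shoots, against 8.65, 8.51 and 8.23 in DMSO shoots. The 3 estradiol arrays lay within 0.17 of each other and all above the DMSO arrays. The difference was 0.95 ± 0.16 (SE), or 1.93-fold, and the lower end of its interval was 0.60. Its limma adjusted p of 0.0527 was the lowest of the 7. By unadjusted p it stood at rank 29, where the first 27 genes were called. In roots AT5G21940 read 9.75, 9.36 and 9.47 with estradiol and 9.39, 8.99 and 8.86 with DMSO. DMSO replicate 1 was above estradiol replicate 2, so these values overlapped, by 0.03. The root difference was 0.45 ± 0.16 (SE), or 1.36-fold, with an interval of 0.10 to 0.80 (limma adjusted p = 0.921).

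**Figure D2:**
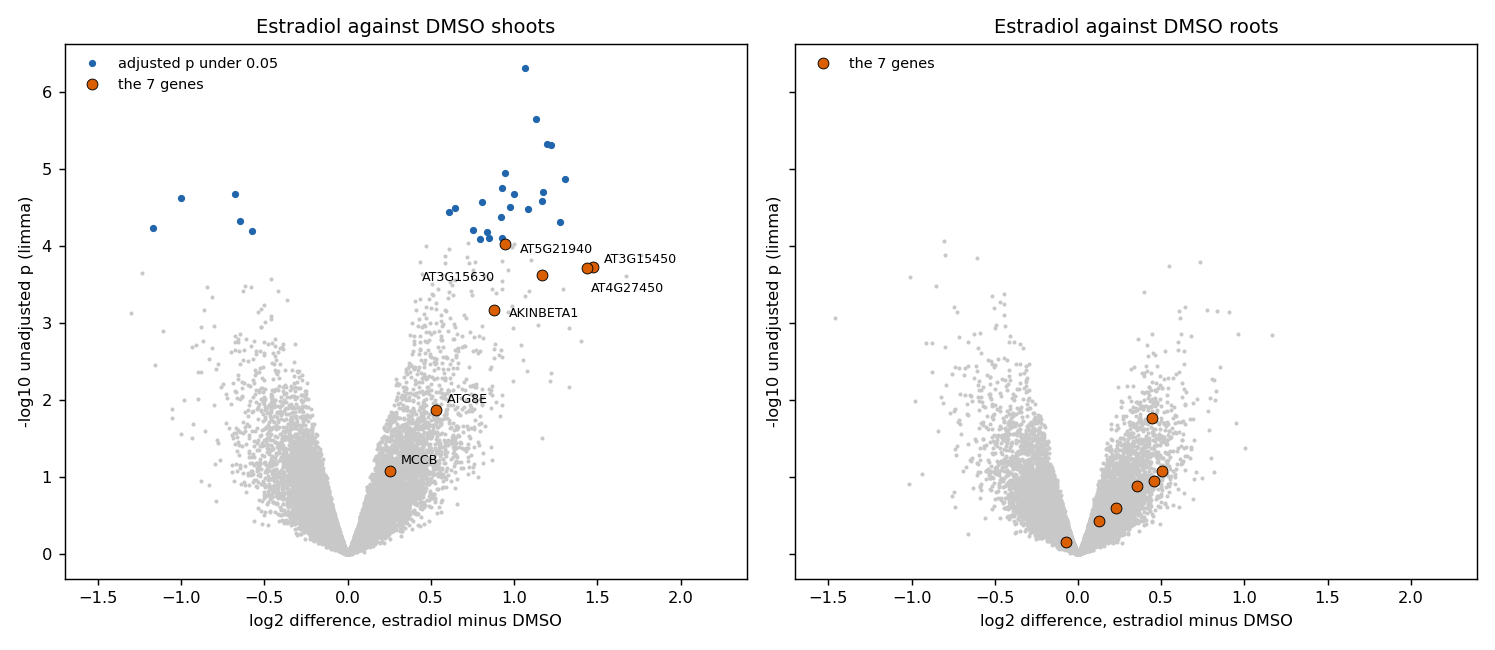
Each gene's log2 difference, estradiol minus DMSO, on the horizontal axis and −log10 of its unadjusted limma p on the vertical axis, in shoots (left) and roots (right). Of the 7 genes, AT5G21940 lies just under the 27 called shoot genes, AT3G15450 and AT4G27450 lie far to the right, and MCCB lies within the mass of genes.

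The plot of difference against p sets the 7 genes among all others. Their shoot calls depended on how the arrays were analysed. With 16 added to the linear signal, 5 of the 7 were called, and 77 of all 16550 genes were. Among genes above the median level only, 5 of the 7 were called again, and 84 of 8275 genes. When the organs were fitted apart, 0 of the 7 were called, as were 0 of all 16550 genes. The limma adjusted p of the 7 then lay between 0.303 and 0.671. Without DMSO shoot replicate 1, AT3G15450 and AT3G15630 were called (limma adjusted p = 0.0436 and 0.0228), and without DMSO root replicate 1 AT5G21940 was (limma adjusted p = 0.0476). In each of these fits without 1 array, 19 of all 16550 genes were called.

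In roots, the tissue that received estradiol, 6 of the 7 genes had a higher mean, as did 48.0% of all genes, and the median difference was 0.35, beside -0.007 over all genes. In limma 0 of the 7 were called, as were 0 of all genes (0.00%). At an unadjusted p under 0.05 there was 1, AT5G21940, against 5.17% of all genes. Single arrays moved these root differences. Without estradiol root replicate 1 that of AKINBETA1 was 0.09, that of AT3G15450 0.30 and that of AT4G27450 0.28. Without DMSO root replicate 2 that of AT4G27450 was 0.27, and that of ATG8E was -0.18.

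The difference between the organs was tested for each gene as the shoot effect minus the root effect. It was positive for all 7, as for 50.9% of all genes, from 0.13 ± 0.19 (SE) for MCCB to 0.98 ± 0.37 for AT4G27450, with a median of 0.65 beside 0.005 over all genes. AT3G15450 followed at 0.97 ± 0.38 and AT3G15630 at 0.81 ± 0.31. AKINBETA1 came next at 0.65 ± 0.27, ATG8E at 0.61 ± 0.26 and AT5G21940 at 0.50 ± 0.22. In limma 0 of the 7 were called, as were 0 of all genes (0.00%), and the adjusted p lay between 0.804 and 0.999. At an unadjusted p under 0.05 there were 6 of 7, MCCB being the exception, against 5.41% of all genes. A larger shoot than root effect was thus not shown for any of the 7 after adjustment.

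**Figure D3:**
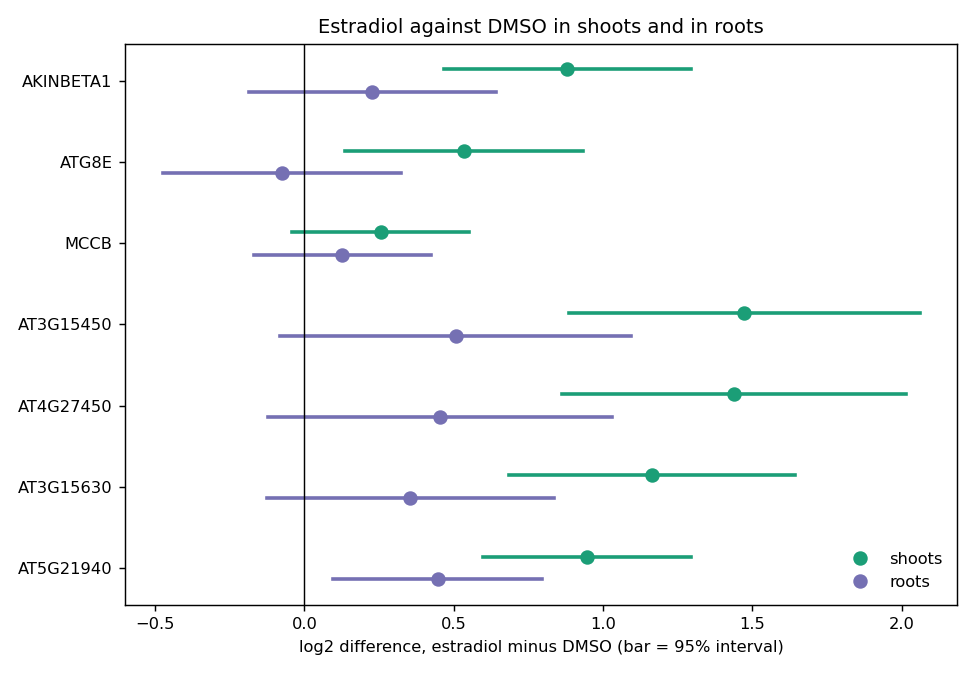
Log2 difference of each of the 7 genes with its interval of 95%, for estradiol against DMSO in shoots and in roots. The shoot difference is the larger one for every gene, and the intervals of the 2 organs overlap for each.

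The intervals drawn for both organs show how wide the error was on 3 arrays per group. For AT3G15450, for example, the shoot interval began at 0.88 and the root interval ended at 1.10.

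The organs also differed with DMSO alone. Of the 7 genes, 4 had a called higher level in DMSO roots than DMSO shoots and 0 a lower one, where 52.5% of all genes were called and 26.6% were higher in roots. The median root minus shoot difference was 0.61, beside -0.09 over all genes. AT3G15630 differed most, by 1.80 ± 0.22 (SE), or 3.48-fold (limma adjusted p = 2.6e-05). AT3G15450 was 0.89 ± 0.27 higher in roots, ATG8E 0.80 ± 0.18 and AT5G21940 0.61 ± 0.16, with limma adjusted p of 0.0151, 0.00294 and 0.00669. The call of AT3G15450 was lost without DMSO root replicate 1, DMSO shoot replicate 2 or DMSO shoot replicate 3 (limma adjusted p = 0.0624, 0.0564 and 0.0585). AKINBETA1 differed by 0.36 ± 0.19, AT4G27450 by 0.10 ± 0.26 and MCCB by -0.10 ± 0.13, with limma adjusted p of 0.132, 0.779 and 0.571. Without DMSO shoot replicate 1, AKINBETA1 was called as well, at 0.52 (limma adjusted p = 0.0395).

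DMSO shoots had the lowest mean of the 4 groups for 6 of the 7 genes, all but MCCB. The order of the groups above them varied. For AT3G15630 all 4 groups were apart, with means ± SD of 8.64 ± 0.15 in estradiol roots, 8.29 ± 0.17 in DMSO roots, 7.65 ± 0.27 in estradiol shoots and 6.49 ± 0.48 in DMSO shoots (n = 3 each). Estradiol shoots thus stayed below both root groups for this gene.

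AT3G15450 had means of 10.61 ± 0.32 in estradiol shoots, 10.53 ± 0.37 in estradiol roots and 10.03 ± 0.29 in DMSO roots, and each of these neighbours overlapped. Its DMSO shoots, at 9.13 ± 0.47, lay apart below them. AT5G21940 had the same gap, with 9.53 ± 0.20 in estradiol roots, 9.41 ± 0.09 in estradiol shoots and 9.08 ± 0.27 in DMSO roots above DMSO shoots at 8.47 ± 0.21.

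AT4G27450 was different in that estradiol shoots, at 8.91 ± 0.43, lay apart above the other 3 groups. Those overlapped, with 8.02 ± 0.37 in estradiol roots, 7.56 ± 0.37 in DMSO roots and 7.47 ± 0.26 in DMSO shoots. AKINBETA1, ATG8E and MCCB had no gap between any neighbours in the order. AKINBETA1 had means of 9.74 ± 0.31 in estradiol shoots, 9.45 ± 0.25 in estradiol roots, 9.22 ± 0.07 in DMSO roots and 8.86 ± 0.30 in DMSO shoots. ATG8E was highest in DMSO roots at 7.04 ± 0.18, with 6.96 ± 0.14 in estradiol roots, 6.77 ± 0.20 in estradiol shoots and 6.24 ± 0.37 in DMSO shoots. For MCCB the order was estradiol shoots at 7.35 ± 0.12, estradiol roots at 7.13 ± 0.22, DMSO shoots at 7.10 ± 0.10 and DMSO roots at 7.00 ± 0.19.

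The 7 genes varied together between replicates as well as between treatments. Replicate 1 was the highest of the 3 arrays in 27 of the 28 combinations of gene and group, while over all genes it was the highest in 35.8%. The exception was AT5G21940 in estradiol shoots, where replicate 1 was the lowest. For the other 6 genes replicate 1 was highest in all 4 groups, as it was for 3.17% of all genes. In those 28 combinations replicate 2 was the lowest in 18 and replicate 3 in 9. Over all genes replicate 2 was the lowest in 34.6% and replicate 3 in 31.9%. Labels do not say what the replicate numbers stand for, and the part of this pattern in the estradiol differences was not tested. With each of the 12 arrays left out in turn, the median shoot difference stayed between 0.85 and 1.06 and the median root difference between 0.27 and 0.44.

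**Figure D4:**
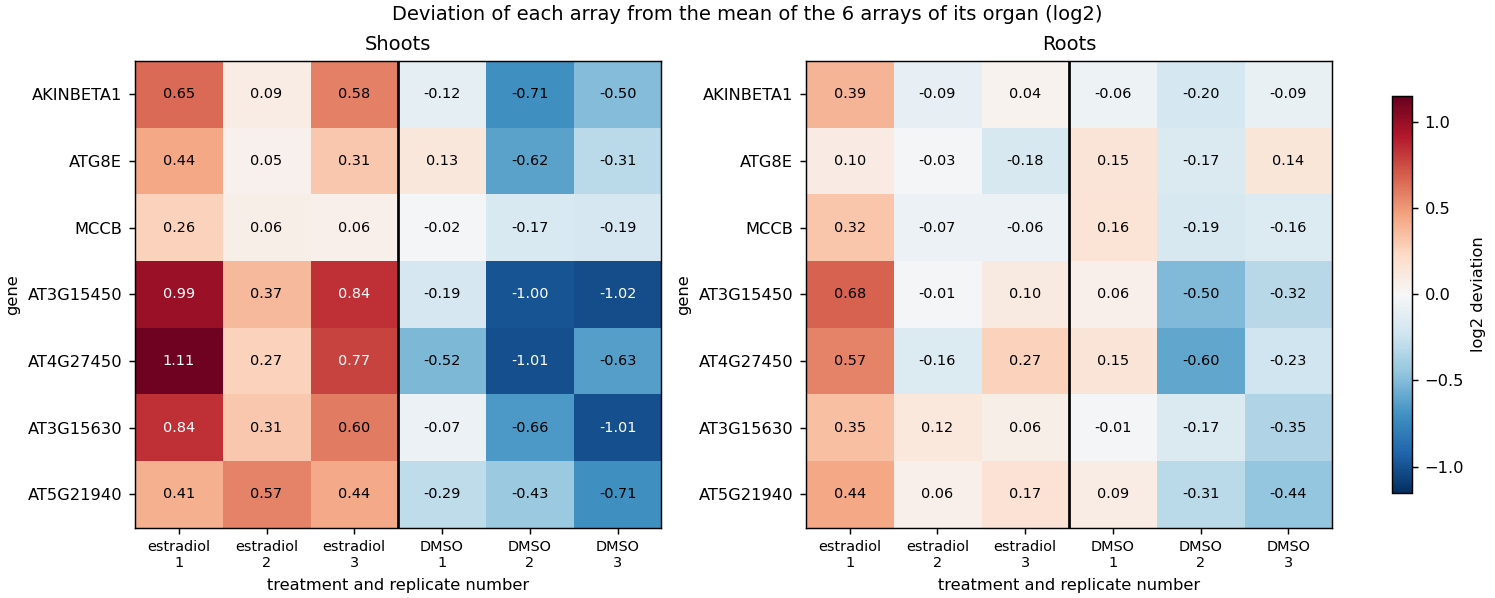
Log2 deviation of each of the 7 genes on each array from the mean of the 6 arrays of its organ, shoots on the left and roots on the right, red above and blue below that mean. In shoots all estradiol cells are positive and all DMSO cells but that of ATG8E in replicate 1 are negative, and in roots estradiol replicate 1 is positive for all 7 genes.

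The map of deviations shows both patterns at once. Over the 12 arrays, centred within each organ, the correlation of each gene with the mean of the other 6 ran from 0.81 for ATG8E and 0.83 for MCCB to 0.997 for AT3G15450. It was 0.97 for AKINBETA1, 0.95 for AT4G27450 and AT3G15630 each, and 0.88 for AT5G21940. Within the 6 root arrays that of ATG8E was 0.27. These points share arrays and the treatment, so the correlations are a description only.

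The 5 other genes most like the mean of the 7 over the same 12 arrays were AT2G31810, AT2G20670, AT1G24440, AT5G47390 and AT1G15740, with Pearson correlations of 0.975, 0.970, 0.967, 0.964 and 0.962. AT5G47390 is the MYB-related transcription factor gene KUA1. They were chosen for a pattern that includes the estradiol difference, so their values are a description with no test. AT2G20670 differed by 1.28 ± 0.20 (SE) in shoots, and its level was 7.91 ± 0.17 in estradiol shoots and 6.63 ± 0.35 in DMSO shoots (SD, n = 3 each). The shoot differences of AT1G24440, AT5G47390, AT1G15740 and AT2G31810 were 0.56, 0.52, 0.46 and 0.35.

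Besides the 7 genes, 8 lists with 115 genes were drawn up. They include the autophagy, branched-chain amino acid and YGL and LRDR motif genes described above, as well as genes of sugar signalling. Of the 115, 35 were measured and 0 were called in either organ. Among all 16550 genes, 27 (0.163%) were called in shoots and 0 in roots. Of 19 classical dark-inducible markers 1 was analysed here, PPDK, the gene of pyruvate orthophosphate dikinase. It differed by -0.16 ± 0.14 (SE) in shoots and -0.11 in roots (limma adjusted p = 0.761 in shoots). Of 9 bZIP transcription factor genes of groups C and S1, which act with SnRK1, 2 were measured. BZIP53 differed by 0.12 ± 0.11 in shoots and bZIP44 by -0.11 ± 0.21. The 7 class II trehalose phosphate synthase genes were not analysed here.

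Sugar-induced genes, which sugar is known to raise, were measured in 3 of 13 cases. All 3 had a lower mean with estradiol in both organs, with a median of -0.25 in shoots and -0.10 in roots, and 0 were called. Over all genes, 49.2% of shoot differences and 48.0% of root differences were above 0. APL3 and APL4 encode subunits of ADP-glucose pyrophosphorylase in starch synthesis. APL3 differed by -0.52 ± 0.16 (SE) and APL4 by -0.25 ± 0.10 in shoots, with limma adjusted p of 0.297 and 0.464. The third gene differed by -0.10 ± 0.23 in shoots (limma adjusted p = 0.927). Its root level was 3.71 ± 0.48 with estradiol and 3.98 ± 0.38 with DMSO (SD, n = 3 each). That of APL4 was 4.35 with estradiol and 4.41 with DMSO. Medians of the root arrays lay between 5.28 and 5.35, so the root differences of both genes come from low signals.

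**Figure D5:**
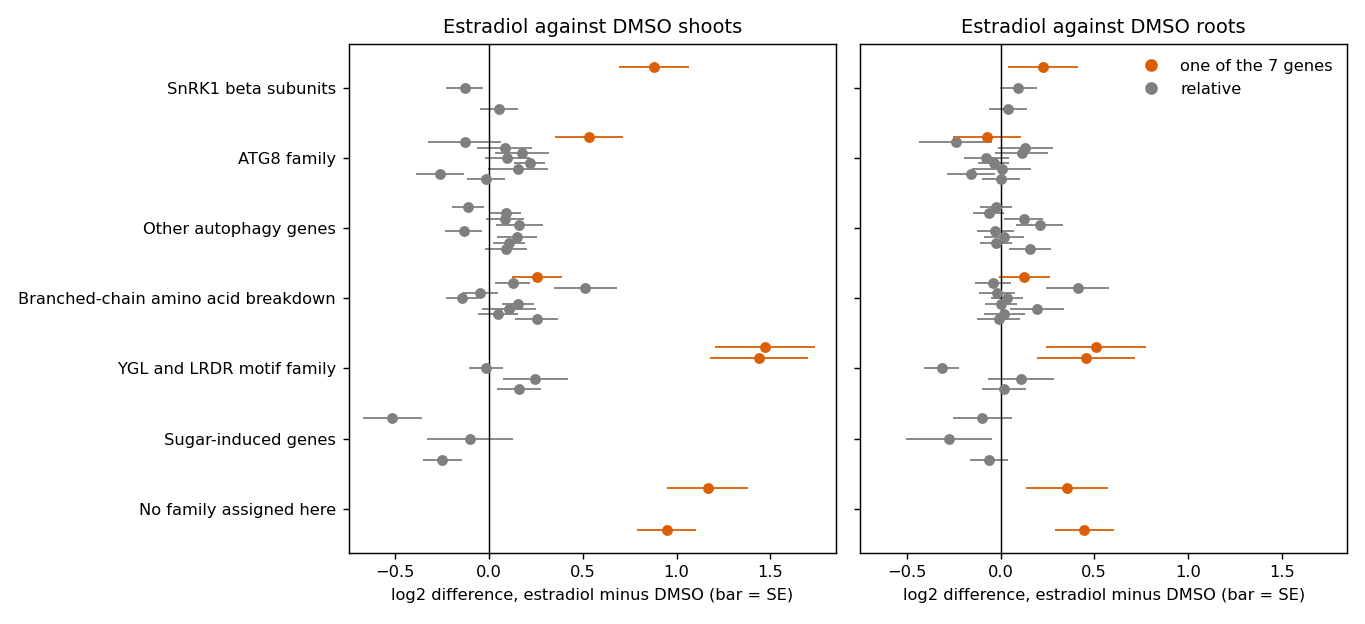
Log2 difference, estradiol minus DMSO, with its SE, of the 7 genes (orange) beside measured genes of the same complex, family or pathway (grey), in shoots and roots. In shoots AKINBETA1, ATG8E, AT3G15450 and AT4G27450 lie to the right of all their relatives, whereas MCCB lies among the other branched-chain amino acid genes. The orange genes were chosen with earlier results of these data known, so their place beside relatives is a description only.

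In the plot of relatives, each shoot difference can be read against that of its own family. AKINBETA1 at 0.88 stood above both other β subunit genes, and ATG8E at 0.53 above the other 8 ATG8 genes, whose highest value was 0.22. AT3G15450 and AT4G27450 at 1.47 and 1.44 stood above their 3 relatives, whose highest was 0.25. MCCB at 0.26 was below AT1G21400 at 0.51. These differences between relatives were not tested. The genes set against their relatives here were chosen with earlier results of these data known. A place above relatives can follow from that choice, so it is a description only.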

How the data were processed

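The authors' deposited values are log2 signals, 1 per probe set and array, between 0.339 and 14.1 with none missing. Per the submitters' processing notes, Affymetrix Expression Console 1.3 was used. How the values were summarized, corrected and normalized is not given in the sources used here. No probe set has a count or depth, so the number of arrays limits the precision. GEO's platform annotation paired 16722 of 38408 probe sets (43.5%) with 1 gene, 759 with several and 20927 with none. The brightest single-gene probe set of each gene was kept, and 16411 of the 16550 genes were found in RefSeq's table (TAIR10.1). Tests used R 4.3.3 and limma 3.58.1 (lmFit, eBayes) on the deposited values, as a model of group means that left 8 residual degrees of freedom. No gene was filtered out, and the code was tested on simulated data. The fit of 4 contrasts was repeated under the alternatives below. The 7 genes and the gene lists were chosen with earlier results of these data known. Named from each other list were called genes, or else up to 2 with the largest shoot difference.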

Additional observations from a re-analysis of the deposited data

How the results depend on the processing

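Under 23 alternatives the shoot difference of each of the 7 genes stayed positive, but the number called, 0 as reported, was 2 with the replicate number as a block in each organ, or replicate block (AT3G15450 and AT4G27450, limma adjusted p = 0.0349 and 0.0178), 4 with trend and robust settings, 1 with array medians subtracted, 5 among genes above the median level and 5 with 16 added to the linear signal. It ran from 0 to 2 with each array left out in turn, and was 0 with the organs apart, seedling sets as a replicate block, array weights, quantile normalization, all probe sets, or probe sets averaged. Over these alternatives the adjusted p ran from 0.0379 to 0.431 for AKINBETA1, 0.0190 to 0.369 for AT3G15450, 0.0178 to 0.349 for AT4G27450, 0.0213 to 0.424 for AT3G15630 and 0.00412 to 0.303 for AT5G21940, while ATG8E (0.140 to 0.648) and MCCB (0.303 to 0.783) were called in none. Calls over all shoot genes numbered 27 as reported, 91 with trend and robust settings, 84 among genes above the median level and 77 with 16 added. They numbered 32 with array medians subtracted, 20 with the replicate block, 7 with array weights, 0 with the organs apart and 0 to 19 with an array left out. With seedling sets as a block there were 27, with quantile normalization 24 and with probe sets averaged 27. With all probe sets 33 of 38408 were called. No member was called in roots or between organs under any of these. The root difference of MCCB was -0.0015 without estradiol roots replicate 1, and ran up to 0.24 with other arrays left out. For DMSO roots minus DMSO shoots, AT4G27450 was at -0.11 with array medians subtracted, -0.091 without DMSO roots replicate 1 and -0.05 without DMSO shoots replicate 2, and ran up to 0.28 with other arrays left out. Array medians were 5.30 to 5.35 in DMSO roots and 5.12 to 5.14 in DMSO shoots, so subtracting them lowers this difference for every gene. The all-gene median of that comparison moved to -0.29, against -0.09. What set the single arrays apart was not tested. With an array left out, 3 to 5 members were called there, beside 7839 to 8739 of all 16550 genes. With the replicate block 5 members were called, AKINBETA1 in addition (limma adjusted p = 0.0315), beside 8693 of all 16550 genes. That fit leaves the spread between replicate numbers out of the error. Over all genes, arrays with the same replicate number deviated together only weakly (correlations of 0.027 to 0.137 in shoots, 0.054 to 0.078 in roots, 0.018 to 0.100 across organs), so the numbers were not taken as pairs. For the 7 genes, replicate 1 was the highest array in 27 of the 28 combinations of gene and group. The correlations over all genes do not describe that pattern.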
